A study of Mus musculus with 12 samples.

Results

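Adgrb3 and 4 transcripts that lie inside it, Gm37602, Gm37895, Gm37051 and Gm37011, were followed in 2 areas of mouse prefrontal cortex, prelimbic (PL) and infralimbic (IL), after dexmedetomidine (Dex) or saline. These are 5 of the 55421 genes in the count table. They were chosen by their values in PL, where the 4 inner transcripts ranked 2, 4, 5 and 10 by p-value among the 20015 genes tested for Dex against saline. For these 5 genes, PL values, and any contrast built from PL libraries, are therefore given as a description without a test. Just inside that list stood Gm37011 at rank 10. The next transcript inside Adgrb3 was Gm36952 at rank 47.

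The study asked how the alpha-2 adrenergic agonist Dex, a sedative, changed cortical RNA after fear learning. All groups held male wild-type C57BL/6 mice of 10 to 12 weeks that had received 3 pairings of a tone with a 0.7 mA foot shock, and tissue was taken 2 h after training. Dex groups received 40 µg/kg by intraperitoneal injection (10 ml/kg), and saline groups the same volume of saline, with 3 polyA RNA libraries in each of the 4 groups. The labels do not tie libraries to individual mice, and a p-value here reflects only how these libraries varied, which may be technical. The extraction protocol names prelimbic tissue for every sample, whereas 6 titles say IL, and the titles were followed.

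Library totals ran from 5419187 to 16530596 counts. Summed neuron markers were at 9991 to 12000 CPM (counts per 1e+06 TMM-scaled reads) in PL and 8098 to 9392 CPM in IL. Summed striatal and septal markers were at 157.5 to 450.5 CPM in PL and 718.2 to 1096 CPM in IL, so the regions also differed in these neighbouring tissues' markers, and their part in any difference between PL and IL was not tested. No marker of either list was at 0 in any group.

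Adgrb3 (BAI3) encodes a brain-enriched adhesion G protein-coupled receptor that sits at synapses, binds secreted C1q-like proteins and signals through ELMO and DOCK proteins to the GTPase Rac1. It is known for its part in synapse formation and dendrite shape. Like many long neuronal genes it is mostly intron, and transcripts placed in such introns on the host's own strand share sequence with the unspliced host RNA. The 4 inner transcripts belong to TEC, GENCODE's class for loci that await experimental evidence, and no function is assigned to them here. Since all 4 lie on the strand of Adgrb3, their reads and reads of unspliced Adgrb3 RNA cannot be told apart, and every TEC value below is uncertain in that way. The counting also used no strand.

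Adgrb3 (ENSMUSG00000033569) lies on chromosome 1, 25067476 to 25829707, on the minus strand of GRCm38. Its span is 762.2 kb, of which the 18559 bp of exon counted make up 2.435%. Overlapping it are 23 genes, 21 on its strand, and none of them overlaps an Adgrb3 exon. Of the 23, 19 are TEC transcripts, 12 in intron 3 (266.14 kb) and 7 in intron 17 (167.89 kb), numbered along the 32-exon transcript Adgrb3-205. All 4 listed transcripts are single exons on the minus strand in intron 3. Gm37602 (ENSMUSG00000102747, 25804097 to 25807406) starts 22.3 kb after the Adgrb3 start. Gm37895 (ENSMUSG00000103924, 25775757 to 25780306) starts at 49.4 kb. Gm37051 (ENSMUSG00000104221, 25620238 to 25623180) starts at 206.5 kb, and Gm37011 (ENSMUSG00000103889, 25608250 to 25611184) at 218.5 kb. Their GC content was 31.1%, 37.2%, 33.2% and 35.5%, against 42.2% for the longest annotated transcript of Adgrb3. That transcript, Adgrb3-210 (5530 bp), is of the retained intron class and not protein-coding. The GC correction used below took this value for Adgrb3.

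The 3′ ends of the annotated transcripts are shown because a polyA library draws on RNA that ends in, or contains, a run of A. The search was for AATAAA, the main cleavage signal, on the transcript's strand in the last 50 bases. The last 60 bases of the 4 transcripts, from GENCODE M21 (GRCm38), and of 2 others of intron 3 that do hold the signal, are written 5′ to 3′ on the minus strand with AATAAA in capitals.
Gm37602, chr1:25804097-25804156: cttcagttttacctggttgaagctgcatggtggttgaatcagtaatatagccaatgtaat
Gm37895, chr1:25775757-25775816: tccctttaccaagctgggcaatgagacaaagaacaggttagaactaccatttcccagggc
Gm37051, chr1:25620238-25620297: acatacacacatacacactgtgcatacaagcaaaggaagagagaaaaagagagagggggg
Gm37011, chr1:25608250-25608309: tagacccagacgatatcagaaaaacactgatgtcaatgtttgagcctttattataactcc
2900022M07Rik, chr1:25808956-25809015: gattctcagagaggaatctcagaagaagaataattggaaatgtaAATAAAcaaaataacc
Gm38198, chr1:25735389-25735448: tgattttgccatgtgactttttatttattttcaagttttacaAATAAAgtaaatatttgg

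None of the 4 listed transcripts (0 of 4) holds AATAAA in its last 50 bases, and 2 of the 19 TEC transcripts inside Adgrb3 do (10.5%). Among all 3258 TEC transcripts 712 do (21.9%), and among the 1748 tested 328 do (18.8%). The longest run of A in each listed transcript is shown next, in capitals with its flanks.
Gm37602, chr1:25804617-25804664: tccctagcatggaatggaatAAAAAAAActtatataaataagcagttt
Gm37895, chr1:25779218-25779264: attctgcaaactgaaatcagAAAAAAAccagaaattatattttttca
Gm37051, chr1:25620807-25620852: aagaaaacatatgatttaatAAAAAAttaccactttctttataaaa
Gm37011, chr1:25608473-25608519: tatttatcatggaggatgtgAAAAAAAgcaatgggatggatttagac

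These runs are 6 to 8 bases long, and the median longest run over the tested TEC transcripts is 7. A window of 20 bases with at least 15 A occurs in 1 of the 4 (Gm37011, 25%), in 10 of the 19 inside Adgrb3 (52.6%) and in 801 of the 1748 tested TEC transcripts (45.8%). A match describes the letters only.

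In PL the exon counts of Adgrb3 overlapped between the groups, while each of the 4 inner transcripts was lower in every Dex library than in every saline library. The PL saline libraries 1 to 3 had 366.8, 355.8 and 321.5 CPM of Adgrb3, and their Dex counterparts had 324.5, 320.6 and 310.5 CPM. The groups overlapped, with means of 348 ± 23.7 and 318.5 ± 7.2 CPM (SD, n = 3) and a log2 fold change of −0.13 (SE 0.112). In bulk tissue, fewer cells of a type and less RNA per cell cannot be told apart.

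Saline libraries 1 to 3 of PL had 54.36, 47.32 and 38.76 CPM of Gm37602, and the Dex libraries 22.86, 25.98 and 27.11 CPM, giving −0.88 (SE 0.146) on the log2 scale, or 0.542-fold. Gm37895, the most abundant of the 4, was at 73.19, 82.22 and 64.48 CPM against 41.22, 49.06 and 42.97 CPM (−0.72, SE 0.124, 0.606-fold). For both, every saline library was above every Dex library. Gm37051 was at 26.27, 23.89 and 17.75 CPM against 8.707, 10.59 and 11.79 CPM (−1.12, SE 0.203, 0.459-fold). Gm37011, the least abundant, with 48 to 154 counts per library over all 12, was at 14.42, 18.04 and 17.15 CPM against 8.707, 6.966 and 8.675 CPM (−1.03, SE 0.196, 0.491-fold). These groups did not overlap either, so all 4 were lower without overlap in a comparison where 6.82% of the genes tested were. Since the listing used this contrast, nothing is read from that count. The labels give each library a batch number, the same as its sample number. Since the groups did not overlap, any pairing of PL libraries puts Dex lower for each of the 4, so the batches add nothing here.

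**Figure D1:**
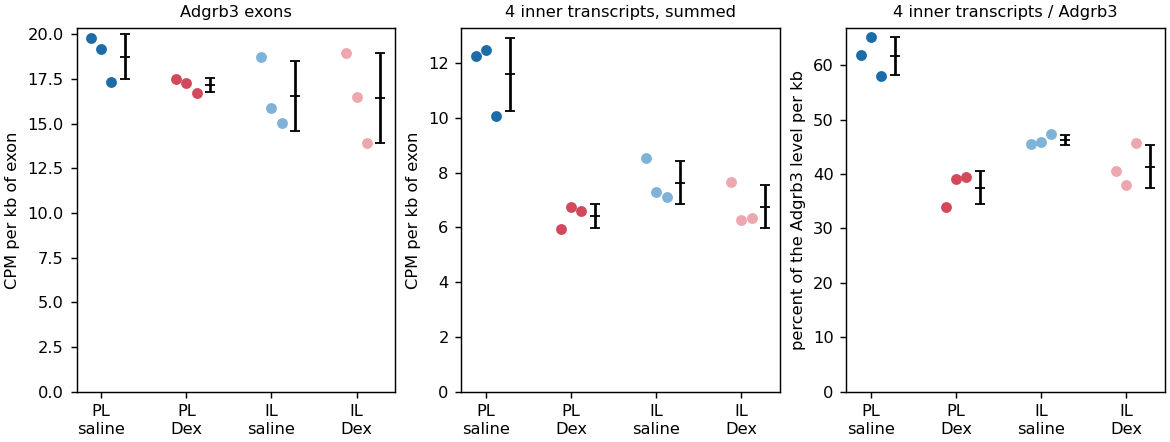
Level per library of the Adgrb3 exons and of the 4 inner transcripts summed, both in CPM per kb of exon, by group. The third panel gives the summed inner level as a percent of the Adgrb3 level per kb. Points are libraries, 3 per group, beside mean ± SD, with y axes from 0. The summed inner transcripts were highest in PL saline (10.06 to 12.48 CPM per kb), whereas Adgrb3 spanned 13.92 to 19.77 CPM per kb with overlapping groups.

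In IL, none of the 5 genes was called for Dex against saline. The listing used the PL contrast and not the IL one. Its p-values, though, came from a fit that estimated spread over the libraries of both regions, so the IL test is not fully independent of it. Saline libraries had 347.8, 294.8 and 278.6 CPM of Adgrb3 and Dex libraries 351.9, 306 and 258.3 CPM, and the groups overlapped. The estimated change was −0.01 on the log2 scale (SE 0.112) with a 95% interval from −0.242 to 0.224 (adjusted p 0.9999, edgeR's quasi-likelihood test with Benjamini-Hochberg adjustment). The interval covers changes of either sign.

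Gm37602 in IL had 33.28, 28.99 and 27.02 CPM under saline against 32.42, 26.56 and 26.75 CPM under Dex (−0.06, 95% interval −0.362 to 0.239). Gm37895 was at 54.69, 49.53 and 50.05 CPM and 52.02, 42.02 and 43.53 CPM (−0.17, −0.424 to 0.0877). Gm37011 was at 11.51, 9.616 and 8.153 CPM and 10.16, 9.154 and 7.655 CPM (−0.13, −0.532 to 0.278). Saline and Dex libraries overlapped for these 3 transcripts, although within each of the 3 batches the Dex library was the lower one for all 3. For Adgrb3 it was the lower one in 1 of 3 batches.

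Gm37051 differed from the others in that its IL groups did not overlap. Saline libraries had 17.72, 11.9 and 12.5 CPM of it, against 10.87, 8.254 and 9.316 CPM under Dex (−0.56, SE 0.203, 95% interval −0.988 to −0.141). Without IL saline library 1 the change was −0.37. Its unadjusted p was 0.0116 and its adjusted p 0.9999 by edgeR's quasi-likelihood test with Benjamini-Hochberg adjustment, as for the other 3 inner transcripts. All 4 inner values were below 0, as were 48.2% of all genes tested in IL. There 0% were called, 1.06% had an unadjusted p under 0.05 and 3.98% were lower with Dex without overlap. Whether the change with Dex differed between PL and IL was not tested for these genes, since the PL values had chosen them.

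With saline, the inner transcripts stood higher in PL than in IL, and with Dex they did not. The PL minus IL difference with saline was 0.65 for Gm37602, 0.51 for Gm37895, 0.69 for Gm37051 and 0.77 for Gm37011 on the log2 scale, and for all 4 every PL library lay above every IL library. With a GC correction per library, added after the data had been seen, these differences were 0.16, 0.19, 0.26 and 0.42 in the same order, and that of Adgrb3 −0.00. In that comparison 20.1% of the genes tested lay higher in PL without overlap. For Adgrb3 the difference was 0.18 and the libraries overlapped. With Dex the differences were −0.17, −0.04, 0.13 and −0.13 for the 4 transcripts, in the same order, and 0.06 for Adgrb3, with overlap for all 5 (10.8% of all genes lay higher in PL without overlap). Ordered by mean level, PL saline was highest for all 4. The means of the other 3 groups lay within 25.31 to 29.76 CPM for Gm37602, where all 3 overlapped. For Gm37895 they lay within 44.41 to 51.42 CPM, and IL Dex overlapped both neighbours while PL Dex lay below IL saline. For Gm37051 PL Dex and IL Dex overlapped at 10.36 ± 1.56 and 9.479 ± 1.32 CPM and both lay below IL saline (14.04 ± 3.2 CPM), and for Gm37011 all 3 overlapped, from 8.116 to 9.761 CPM.

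The ratio of the inner transcripts to the exons of their host, both per kb, does not depend on how libraries are scaled. The host exons counted, 18559 bp, pool the annotated transcripts (11 in GENCODE M21), whereas the protein-coding Adgrb3-205 is 5432 bp. Several of the others are of the retained intron class, so the host level per kb is not that of spliced Adgrb3 alone. The summed level of the 4 inner transcripts was 61.9%, 65.1% and 58.1% of the Adgrb3 level per kb in the 3 PL saline libraries, against 33.9%, 39% and 39.4% under Dex. In IL it was 45.5%, 45.8% and 47.4% with saline and 40.5%, 38% and 45.6% with Dex. The PL groups were 61.7 ± 3.53% and 37.5 ± 3.05% (SD, n = 3), a fold of 0.606. The IL groups were 46.3 ± 1% and 41.4 ± 3.91%, a fold of 0.892, and they overlapped (exact permutation test, two-sided, p 0.2, with 0.1 the smallest possible for 3 against 3). Within batches the IL ratio was lower with Dex in 3 of 3 (exact sign-flip permutation p 0.25, the smallest that 3 pairs allow). The log2 difference in IL, −0.16, was −0.11 without IL Dex library 2 and −0.24 without IL Dex library 3. In CPM per kb, the 4 summed to 11.6 ± 1.34 in PL and 7.64 ± 0.774 in IL under saline, and to 6.42 ± 0.43 and 6.76 ± 0.793 under Dex.

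The rest of the Adgrb3 locus was then described by intron. The split into introns was chosen after the values had been seen and has no test. All 12 TEC transcripts of intron 3 had negative log2 fold changes with Dex in PL, with a median of −0.67 (range −1.12 to −0.38), against a median of −0.00 over all genes tested, of which 50.3% were negative and 49.7% positive. In 10 of the 12 the groups did not overlap, where 6.82% of all genes tested, and 21.2% of the tenth with the lowest GC content (18.1% to 40%), were lower without overlap. The 12 include the 4 listed transcripts, which this contrast had chosen. The 8 that were not listed had a median of −0.56, and in 6 of these 8 the groups did not overlap. 2900022M07Rik had 14.9 ± 1.05 CPM under saline and 7.92 ± 1.63 under Dex (−0.91), and Gm36952 at 60.8 ± 11.3 and 40.9 ± 2.45 CPM (−0.57). The smallest change was that of 2900002M20Rik (−0.38), whose groups overlapped.

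The 7 TEC transcripts of intron 17 had values on both sides of 0 in PL. Their log2 fold changes ran from −0.25 (Gm20172) to 0.25 (Gm37211), 4 positive and 3 negative, with a median of 0.07, and all 7 had overlapping groups. Gm37880, the first in that intron, had 26.4 ± 3.68 CPM under saline and 28.9 ± 4.77 under Dex. The remaining genes in the span were low: Gm29214, a processed pseudogene of intron 3, had a log2 fold change of −0.83 and Gm15702, a processed pseudogene on the other strand, one of 1.18, at 1 to 15 counts per library. The small nuclear RNA gene Gm22260 had −0.32, and Gm25294, a second one, had 0 to 9 counts and was not tested.

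**Figure D2:**
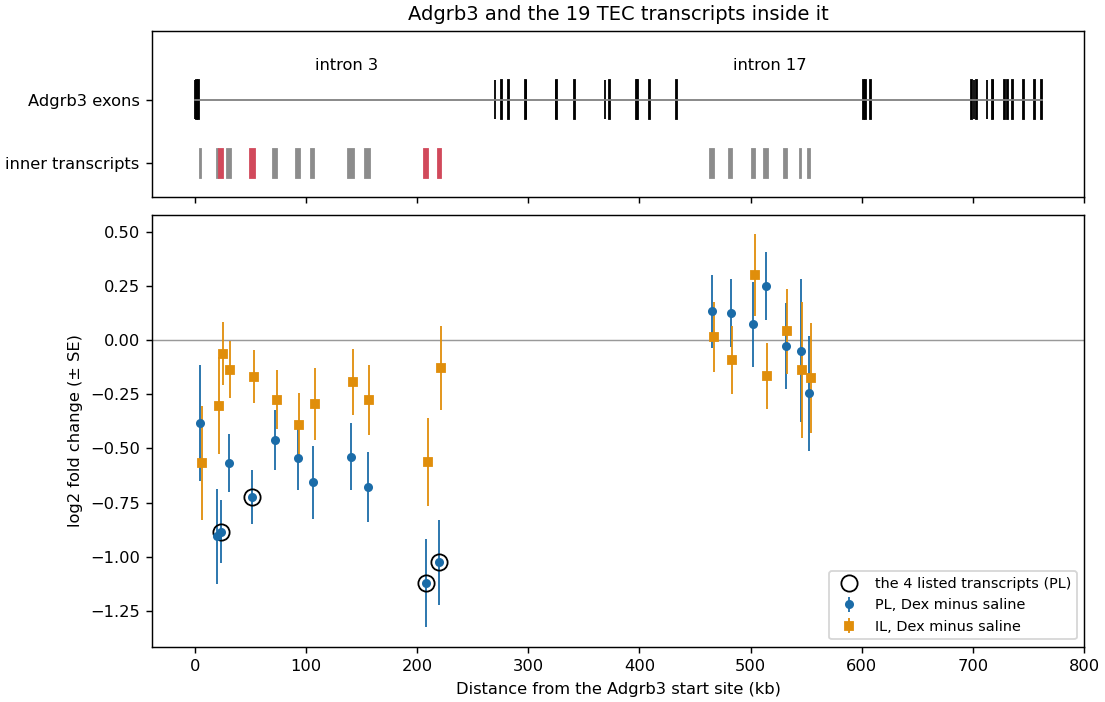
Upper panel, exons of Adgrb3 and the 19 TEC transcripts inside it by distance from the Adgrb3 start (kb); lower panel, log2 fold change (± SE) for Dex minus saline in PL and IL, with the 4 listed transcripts ringed. All 12 transcripts of intron 3 lie below 0 in PL and those of intron 17 scatter between −0.25 and 0.25.

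In IL, all 12 transcripts of intron 3 also had negative log2 fold changes, with a median of −0.28 (range −0.57 to −0.06), and 5 of them were lower without overlap, as were 3.98% of all genes tested. The 8 unlisted ones had a median of −0.29, and 4 of these did not overlap. Gm38198 was at 40 ± 6.1 CPM under saline and 30.4 ± 0.381 under Dex (−0.39, unadjusted p 0.0148, adjusted p 0.9999 by edgeR's quasi-likelihood test with Benjamini-Hochberg adjustment). 2900002M20Rik was at 8.07 ± 0.89 and 5.46 ± 0.524 CPM (−0.57). In intron 17 the IL median was −0.09, with 3 positive and 4 negative values and no group pair without overlap. Over all genes tested in IL the median was 0.01, with 51.8% positive.

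Per kb, the level of intron 3 relative to intron 17 was 1.803, 2.093 and 1.775 in the 3 PL saline libraries, against 1.078, 1.133 and 1.153 under Dex. In IL it was 1.308, 1.324 and 1.322 with saline and 1.01, 1.172 and 1.189 with Dex. The saline libraries lay above the Dex libraries in both regions, with means of 1.89 ± 0.176 and 1.12 ± 0.0388 in PL and of 1.32 ± 0.00872 and 1.12 ± 0.0988 in IL. The summed intron 17 transcripts were at 6.65 ± 0.757 CPM per kb under saline and 7.07 ± 0.649 under Dex in PL, and at 6.82 ± 0.914 and 6.85 ± 1.09 in IL. Those of intron 3 were at 12.6 ± 1.61 and 7.93 ± 0.803 CPM per kb in PL and 8.98 ± 1.14 and 7.63 ± 0.493 in IL. No annotated Adgrb3 transcript starts between these introns. The annotated starts lie either within 3.568 kb of the first or 600.6 kb and more from it. The annotated form Adgrb3-210, of the retained intron class, ends between them, at 345.8 kb. Levels of single Adgrb3 forms were not measured, and the cause of the difference between the introns was not tested.

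The level per kb was lower further along each intron in the direction of transcription, in all 4 groups. In PL saline, 2900002M20Rik near the start of intron 3 was at 25.55 CPM per kb and Gm37011, the last, at 5.634 CPM per kb. The first is only 330 bp long and stood apart from the next, 2900022M07Rik, at 14.63 CPM per kb. In IL saline the first was at 24.44 and the next at 7.849 CPM per kb, so the first overstates the slope. The Spearman coefficient between distance and level was −0.867 (saline) and −0.713 (Dex) in PL and −0.720 and −0.755 in IL over the 12 transcripts. In intron 17 the level went from 8.114 CPM per kb (Gm37880) to 3.716 CPM per kb (Gm20172) in PL saline, and the coefficients were −0.929, −0.964, −1 and −0.893 over 7 transcripts. These points share their libraries and their host, and the coefficients are descriptions. For the log2 fold change with Dex, the coefficient with distance was −0.350 in PL and 0.0839 in IL along intron 3, and −0.786 and −0.536 along intron 17.

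**Figure D3:**
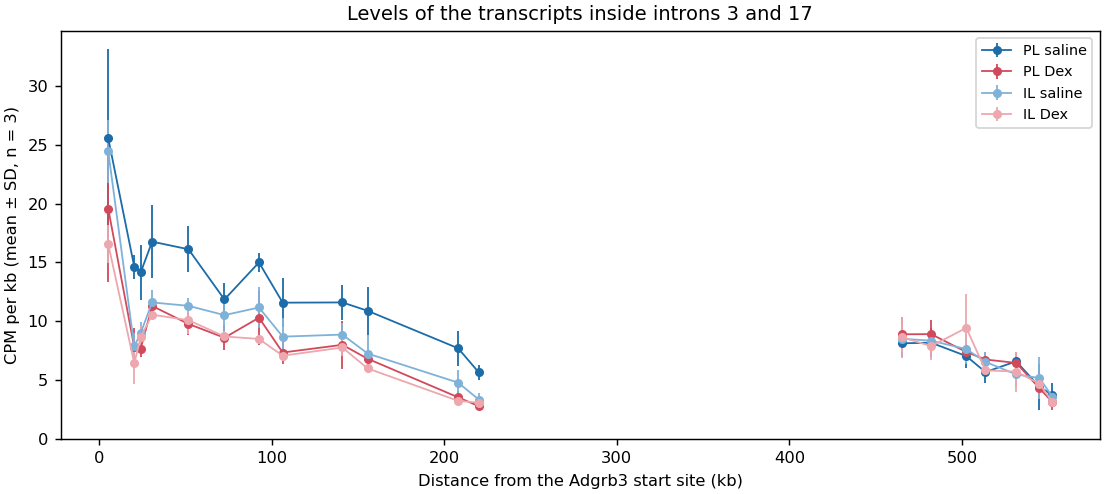
Level of each TEC transcript (CPM per kb, mean ± SD, n = 3) by distance from the Adgrb3 start (kb), with lines joining the transcripts of 1 intron in each of the 4 groups. Levels are lower further along both introns, and PL saline has the highest mean for each transcript of intron 3, where its summed level was 12.6 CPM per kb, while the groups interleave in intron 17.

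GC content moved with the PL comparison. The tenth of tested genes with the lowest GC content had a median log2 fold change of −0.30 in PL and 0.02 in IL. The 12 transcripts of intron 3 had a median GC content of 36.9% and the 7 of intron 17 one of 37.8%. With the GC correction per library the 4 inner transcripts were at −0.37 (Gm37602), −0.39 (Gm37895), −0.67 (Gm37051) and −0.66 (Gm37011) in PL, and Adgrb3 at 0.06. The median was then −0.28 in intron 3, with 12 of 12 negative, and 0.36 in intron 17, with 0 of 7 negative.

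PL saline library 3 and PL Dex library 3 had nearly equal slopes of level on GC content, −0.0724 and −0.0665 log2 units per 10% GC. Between these 2 libraries the summed inner level was 58.1% and 39.4% of Adgrb3, and the intron 3 to intron 17 ratio 1.775 and 1.153. This pair was picked for its slopes and is 1 library of each group, from the contrast that chose the members, so nothing is read from it. The other PL slopes split by group, at −0.249 and −0.304 for saline 1 and 2 and 0.118 and 0.0976 for Dex 1 and 2. The part of GC content in the PL differences was not tested. The PL libraries also fell in 2 sets along the first principal component (35.8% of the variance), with Dex 1 and 2 and saline 1 nearer to IL. Within that set the inner to host ratio differed by −0.77 on the log2 scale, and in the other set (Dex 3, saline 2 and 3) by −0.64. Each set holds a single library of 1 group, so these are values without a spread.

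**Figure D4:**
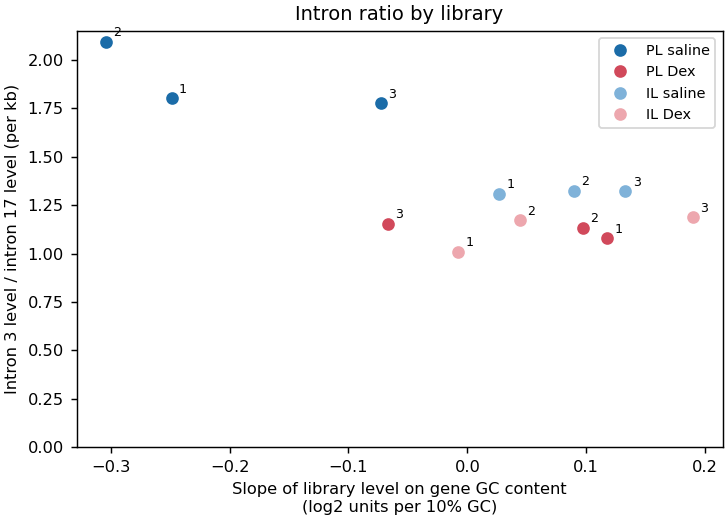
Ratio of intron 3 to intron 17 level per kb (y axis from 0) against the slope of library level on gene GC content (log2 units per 10% GC), 1 point per library with its replicate number. PL saline and PL Dex libraries 3 share a slope near −0.07 and have ratios of 1.775 and 1.153, each a single library of its group. The slopes of the other PL libraries split by group, and the part of GC content was not tested.

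A list of 9 RNAs known to be retained in the nucleus was also read. With Dex in PL 3 of the 9 had positive values, the median was −0.10 and 0 were called, against 0.02% of all genes. In IL 1 of the 9 was positive, with a median of −0.07 and 0 called. Malat1, a nuclear speckle RNA and the most abundant of them, had 17020 ± 2331 CPM under saline and 15540 ± 2005 under Dex in PL (−0.13). Meg3 and Snhg11, the next 2, had log2 fold changes of 0.14 and −0.02. Summed over the list, PL levels were 23000 to 29150 CPM under saline and 20130 to 27610 under Dex.

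The known partners of the receptor were next. Of the 19 listed, 17 were tested (C1ql2 and C1ql4 were too low). With Dex 0 were called in PL or IL, where 0.02% and 0% of all genes were. In PL 12 of the 17 had positive values with a median of 0.15, where 49.7% of all genes were positive. In IL it was 12 of 17 with a median of 0.02, where 51.8% of all genes were positive. Among ligands, C1ql3 had 104 ± 13.9 CPM under saline and 87 ± 9.16 under Dex in PL (−0.25), and C1ql1 was at 2.09 ± 0.884 and 2.82 ± 0.511 CPM (0.46). The related receptors Adgrb1 and Adgrb2 were at 302 ± 68.6 and 312 ± 75.2 CPM under saline and at 394 ± 51.8 and 398 ± 56.5 under Dex (0.38 and 0.35). Downstream, Rac1 was at 180 ± 10.8 and 155 ± 19.2 CPM (−0.21), Elmo1 at 101.3 ± 11.1 and 100.7 ± 5.42 CPM and Dock1 at 48.8 ± 3.48 and 49.8 ± 2.14 CPM. A second list of 14 adhesion receptors of brain had 10 positive values in PL (median 0.21) and 0 called, against 49.7% and 0.02% of all genes. The tenth of tested genes with the highest GC content had a median of 0.28 in PL. The part of GC content in the values of both lists was not tested.

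Between the regions, the same list held several called genes. With saline, C1ql3 was higher in PL than in IL (104 ± 13.9 against 44 ± 4.4 CPM; log2 fold change 1.24, adjusted p 1.7e-05), as was the kainate receptor gene Grik4 (40.6 ± 5.72 against 23.8 ± 1.16 CPM; 0.78, 0.00223), by edgeR's quasi-likelihood test with Benjamini-Hochberg adjustment. In that test Adgrb1 (−0.53, adjusted p 0.0253), C1ql1 (−1.35, 0.0203) and the engulfment adaptor gene Elmo3 (−0.78, 0.0188) were lower in PL. So 2 of 17 were higher and 3 lower, where 9.97% of all genes were higher and 8.7% lower. With Dex, where 3.8% of all genes were higher and 3.54% lower, 2 were higher, C1ql3 (0.80, adjusted p 0.00144) and Grik4 (0.92, adjusted p 0.00136) in the same edgeR fit, and 0 lower.

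The genes flanking Adgrb3 gave no call with Dex in either region. Lmbrd1, 301 kb beyond its 3′ end, had 256 ± 16.2 CPM under saline and 227 ± 35.4 under Dex in PL (−0.17), and Phf3, 4973 kb on the other side, at 155 ± 6.87 and 140 ± 20.7 CPM (−0.14). Gm9884, a TEC transcript 0.95 kb before the Adgrb3 start, was at 1.84 ± 0.571 and 2.09 ± 0.286 CPM. Of the unprocessed pseudogenes between 451 and 454 kb, Gm28437 was at 53.2 ± 22.8 and 19.4 ± 4.6 CPM (−1.46) and Gm28661 at 32.4 ± 5.43 and 14.7 ± 7.14 CPM (−1.14). Both were lower without overlap, as were 6.82% of all genes tested. For Gm29216 (−0.56) and Gm10925 (−0.72), in the same cluster, the groups overlapped. A pseudogene can share reads with related sequences elsewhere in the genome, so these counts are uncertain and may not come from this place.

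Over the 12 libraries the inner transcripts correlated with one another and, at lower values, with Adgrb3. Pearson's r of log2 CPM between pairs of the 4 was 0.837 to 0.945, and r with Adgrb3 was 0.617 to 0.650. The 5 genes most like the mean of the 4 were Nr1d2 (0.943), a clock repressor, Ddx60 (0.941), Gm36952 (0.937), itself in intron 3, Rock1 (0.936) and Prpf39 (0.935). The 5 most like Adgrb3 were Srsf11 (0.944), a splicing factor gene, Myef2 (0.931), Gm27660 (0.921), Gm45183 (0.915), which lies in Dlg2, and Gm37964 (0.914), which lies in B3galt1. These values share libraries, depth and the GC trend, and are descriptions.

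Inner transcripts of other host genes gave the background for this locus. Outside Adgrb3, 1227 TEC transcripts lay inside a tested host on its strand. In PL 68% of them had negative values (median −0.19) and in IL 58.5% (median −0.06). Their hosts, 702 genes with Adgrb3 included, had a median of −0.07 in PL. Among the 15 hosts with at least 8 such transcripts, Pcdh7, a protocadherin gene, had the lowest median in PL (−0.77, 13 of 13 negative, host −0.29), followed by Mir99ahg (−0.62) and Adgrb3 (−0.54 over 19). Kcnip4, with 24, had −0.39 and Auts2, with 22, had 0.03. In IL the Adgrb3 median was −0.17, with 16 of 19 negative.

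**Figure D5:**
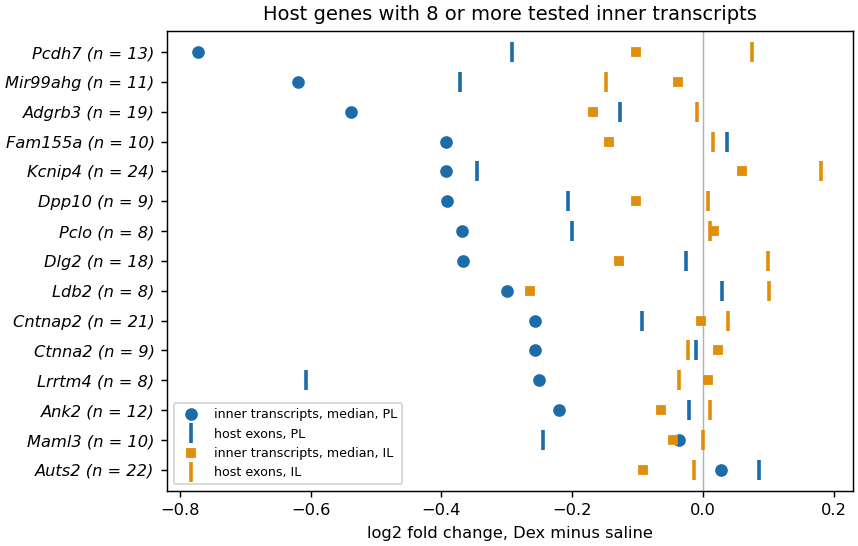
Median log2 fold change for Dex minus saline of the TEC transcripts inside each of 15 host genes, in PL (circles) and IL (squares), with the host's own exon change as a bar. Adgrb3 (−0.54) lies in PL next to Pcdh7 (−0.77) and Mir99ahg (−0.62), but its median includes the 4 listed transcripts, which were chosen by their PL values.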

How the data were processed

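RNA of 12 mouse cortex libraries was sequenced after polyA selection, per the labels. The authors deposited raw counts per gene, made with featureCounts 2.0.1 on exons of GRCm38 release 98 with no strand option, per the file headers. Per the submitters' processing notes, reads passed through bcl2fastq, Trim Galore, HISAT2 and SAMtools 1.8, and those notes name mm39. The file header was followed, since 54948 of 55240 shared gene IDs have the same coordinates in GENCODE M21 (GRCm38). A further 12 count columns match no sample used here and were left out.

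The members and gene lists were chosen with earlier results of these data known. Named genes are the 5 members, every gene overlapping Adgrb3, the 5 nearest tested genes on each side, tested members of the pathway list, the 5 genes most correlated with Adgrb3 and with the inner mean, and of other lists the 3 most abundant; genes shown as examples of other hosts were chosen after their values were seen. Counts were fitted with edgeR 4.0.16 (R 4.3.3; TMM, filterByExpr, 20015 genes, robust quasi-likelihood, 1 mean for each of 4 groups, 8 residual degrees of freedom) and adjusted by Benjamini-Hochberg with a threshold of 0.05. The script was tested on simulated data. CPM uses TMM-scaled totals, and correlations use log2 CPM with a prior count of 2. Alternatives were DESeq2 1.42.0, its size factors, no filter, the 6 libraries of a region, a replicate block, leaving out each library, and, added after seeing the data, a GC correction by loess (span 0.5). The labels' batch number, which equals the sample number, pairs libraries across groups, though the labels do not say what a batch was. Deviations of same-numbered libraries correlated at 0.108, 0.00858 and 0.0736 in PL and 0.284, 0.294 and 0.337 in IL.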

Additional observations from a re-analysis of the deposited data

How the results depend on the processing

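Under the alternatives 6 values changed sign and 24 moved by more than the replicate spread or, for counts, by over 1.5 times. The other 172 either kept their direction and side of the threshold, whatever their size, or, where there was no test, moved by less than that. In PL the number of genes called, 4, became 0 with DESeq2's size factors, 123 with DESeq2, 193 without the filter, 0 with the 6 PL libraries alone, 1 with the GC correction and 2 with the GC correction and replicate block. Leaving out 1 library gave 0 to 1484, the highest without PL Dex library 3. The PL median of the 4 inner transcripts, −0.96, was −0.52 with the GC correction and −0.53 with the block added, and −1.001 to −0.88 with a library left out. The PL log2 ratio of inner transcripts to Adgrb3, −0.72, was −0.35 over all tested genes inside Adgrb3 and −0.77 to −0.65 with a library left out. Adgrb3 in PL was at 0.0611 with the GC correction and 0.0581 with the block added. In IL, 0 genes were called by edgeR and by DESeq2, 213 had an unadjusted p under 0.05, and 3 were called without the filter. Near 0, the sign in IL turned without a single library: Adgrb3 was at 0.09 without IL saline library 1 and 0.10 without IL Dex library 3 (range −0.12 to 0.10), and Gm37602 at 0.023 (range −0.157 to 0.023) and Gm37011 at 0.00196 (range −0.245 to 0.00196) without IL saline library 1. Gm37895 was at −0.26 to −0.11 and Gm37051 at −0.67 to −0.37 with a library left out, and the IL median of the 4, −0.15, at −0.24 to −0.06. The IL log2 ratio of inner transcripts to Adgrb3 was −0.24 to −0.11 with a library left out and −0.21 as the mean of the 4 log2 ratios, and over all alternatives its exact permutation p ran from 0.1 to 0.3. The cause was not tested.

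With the batch number as a replicate block, 3 genes were called in PL and 0 in IL, the median of the 4 inner transcripts was −0.95 in PL and −0.14 in IL, and no call among the 5 genes changed in IL. Counts were lowest for Gm37011, at 48 to 154 per library.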
